A study of Mus musculus with 14 samples.

Results

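The genes described here are 40 genes of the lysosome, chosen by symbol out of the 25239 gene symbols in the deposited count table. They are 10 cathepsins and legumain, 6 glycosidases, 6 genes of lipid degradation and cholesterol export, 6 genes of lysosomal membrane proteins and progranulin, 3 transcription factors of the MiT/TFE family and 9 genes of the proton pump. RNA came from mouse bone marrow-derived macrophages, which were grown from marrow with medium of the fibroblast line L929 for 7 to 10 days. The 4 groups were Ezh2 knockout (KO) cells kept for 24 h in medium conditioned by Hepa1-6 cells (CM, 3 libraries), KO cells in complete DMEM (control medium, 3 libraries), wild-type (WT) cells in CM (4 libraries) and WT cells in control medium (4 libraries). Hepa1-6 is a mouse liver cancer line. KO cells were from mice with the genotype Ezh2fl/fl;LysM-Cre+/-, in which Cre recombinase made from the Lyz2 locus removes part of Ezh2 in myeloid cells. WT cells were from littermates, whose Ezh2 and Cre alleles are not given in the labels. All 14 libraries therefore share the L929 medium, and mouse age and sex are not given. The labels do not say whether replicates of a group came from separate mice, and the p-values rest only on how far these libraries differ from each other, which may be technical.

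Lysosomes break down proteins, glycans and lipids at acid pH, which the vacuolar proton pump (V-ATPase) keeps by moving protons across the membrane at the cost of ATP. Its V1 subunits form the part in the cytosol that splits ATP, and its V0 subunits form the channel in the membrane. Macrophages are rich in lysosomes, which digest what the cells take up and prepare antigens. TFEB, TFE3 and MITF are related transcription factors known to bind E-box sequences in promoters of lysosomal genes, the CLEAR element, and their activity is set largely by phosphorylation and nuclear entry. Ezh2 is the methyltransferase of Polycomb repressive complex 2, which marks histone H3 at lysine 27.

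Library totals were 80415111 to 85774436 exon counts in WT libraries 3 and 4 of both media and 40249866 to 61539097 in the other 10 libraries. For the KO label, the Ezh2 exons of 81 and 85 bases had counts per base of 2.1% to 31.7% of those of the other Ezh2 exons in the 6 KO libraries and 94.0% to 169.5% in the 8 WT libraries. These 2 exons were chosen after their values were seen, and the labels do not say which exons the allele loses. Summed over all its exons, Ezh2 was lower in KO than in WT cells by 0.40 in CM on the log2 scale (edgeR adjusted p = 0.0335). In control medium it was lower by 0.31 and not called (edgeR adjusted p = 0.0762). Ezh2 was called higher in CM than in control medium, by 0.55 in KO cells and 0.63 in WT cells. WT libraries 3 and 4 of both media stood apart in the share of a gene's counts on each of its exons, taken over the 40 genes. On the first component of these exon shares, which held 66.4% of the variance over 471 exons, they scored 0.39 to 0.46, while the other 10 libraries scored -0.23 to -0.13. The labels name no batch, so KO cells were also compared with WT libraries 1 and 2 alone, and these values stand beside the results. Markers of macrophages were detected in all groups (12 genes, summed level 19688 to 20393 CPM in KO cells in CM, 21843 to 22559 CPM in KO cells in control medium, 29809 to 32857 CPM in WT cells in CM and 30739 to 36228 CPM in WT cells in control medium), with the lower KO sums set by Lyz2, the gene at whose locus Cre is placed. In each genotype 2 of the 12 were called higher in CM (Itgam and Fcgr1) and 4 lower (Csf1r, Adgre1, Aif1 and Cx3cr1). Adgre1 averaged 1900 CPM in KO cells in CM, against 3687 CPM in KO cells in control medium, and 2098 CPM in WT cells in CM, against 3382 CPM in WT cells in control medium. Cx3cr1 averaged 3.04 CPM in KO cells in CM, against 49.9 CPM in KO cells in control medium, and 1.87 CPM in WT cells in CM, against 27.8 CPM in WT cells in control medium.

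E-boxes were searched in the RefSeq promoters (build GRCm38.p6, 250 bases before to 50 bases after each start). A promoter was available for 33 of the 40 genes. The palindrome TCACGTGA, which reads the same on both strands, was in 6 of the 33 genes (18.2%), against 1.12% of 27025 genes with a promoter. The shorter palindrome CACGTG, which lies inside the longer one, was in 13 of the 33 (39.4%), against 8.09% of all genes. Excerpts of 5 promoters are shown because these genes cover the responses to CM described next: Ctsd, Atp6v0d1 and Lamp1 were called higher, Atp6v1a was called lower and Mcoln1 was not called. Capitals mark the E-box, with its flanking bases where the longer palindrome was present. The excerpts lie at chr7:142387893-142387952 on the minus strand for Ctsd, at chr8:105566035-105566094 on the minus strand for Atp6v0d1, at chr8:13159074-13159161 on the plus strand for Lamp1, at chr16:44139358-44139417 on the minus strand for Atp6v1a and at chr8:3500447-3500506 on the plus strand for Mcoln1.
Ctsd: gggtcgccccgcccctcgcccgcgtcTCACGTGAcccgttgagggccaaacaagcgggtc
Atp6v0d1: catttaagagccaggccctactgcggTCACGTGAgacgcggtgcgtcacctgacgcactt
Lamp1: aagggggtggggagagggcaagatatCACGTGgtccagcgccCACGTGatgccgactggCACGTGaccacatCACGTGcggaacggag
Atp6v1a: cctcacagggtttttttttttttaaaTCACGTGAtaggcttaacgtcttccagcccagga
Mcoln1: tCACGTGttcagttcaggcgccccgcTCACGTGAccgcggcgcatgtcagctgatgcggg
The longer palindrome began 99 bases before the start in Ctsd, 4 in Atp6v0d1, 132 in Atp6v1a and 46 in Mcoln1, and Lamp1 held 4 copies of the shorter one between 61 and 15 bases before its start. The other 2 genes with the longer palindrome were Ctsa and Gla, and neither was called for CM. Of all genes tested, CM in WT cells was called higher for 19.3% and lower for 18.0%. Among the 6 genes, CM in WT cells was called higher for 2 and lower for 1. Among the 27 genes with a promoter but without it, CM in WT cells was called higher for 13 and lower for 5. With the shorter palindrome the counts were 6 higher and 2 lower of 13, and without it 9 higher and 4 lower of 20. These matches are descriptions of the letters in the window.

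The 40 genes together held a larger share of the counts in every CM library than in any control medium library of either genotype, and Psap and the cathepsins made up most of that share. Together they held 10.7% ± 0.25 of a library's counts in KO cells in CM (SD, n = 3), against 7.57% ± 0.087 in KO cells in control medium (SD, n = 3). In WT cells they held 10.9% ± 0.22 in CM, against 8.09% ± 0.15 in control medium (SD, n = 4 each). Psap, which encodes prosaposin, the precursor of the saposins that help enzymes reach glycolipids, held 3.70% of all counts in KO cells in CM, against 1.90% in KO cells in control medium, and 3.63% in WT cells in CM, against 2.13% in WT cells in control medium. The proton pump genes together held 0.366% in KO cells in CM, against 0.367% in KO cells in control medium, and 0.352% in WT cells in CM, against 0.363% in WT cells in control medium. In bulk RNA, a change in the number of cells of a type and a change in RNA per cell cannot be told apart. Some markers of other cell types moved with CM. The sum of 10 markers of neutrophils and their precursors was 90.1 to 96.6 CPM in KO cells in CM, against 23.7 to 24.8 CPM in KO cells in control medium, and 49.1 to 53.3 CPM in WT cells in CM, against 13.5 to 17.3 CPM in WT cells in control medium. Mmp8, Prtn3 and Elane were called higher in both genotypes. Other markers of the list were called lower in CM, Ngp in WT cells and S100a9 and Ltf in KO cells. Elane, Ngp and Ltf each averaged below 1 CPM in every group. Without Mmp8 the sum stayed at or below 5.77 CPM in every library, S100a8 and S100a9 each averaged below 1 CPM in every group, and Mpo had 0 counts in KO cells in CM and in both control groups. The sum of 5 erythroid and megakaryocyte markers was 92.1 to 132.8 CPM in KO cells in CM, against 26.3 to 32.4 CPM in KO cells in control medium, and 50.7 to 81.5 CPM in WT cells in CM, against 18.9 to 23.5 CPM in WT cells in control medium. Pf4 made up most of it. The part of these genes in the larger lysosomal share was not tested.

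**Figure D1:**
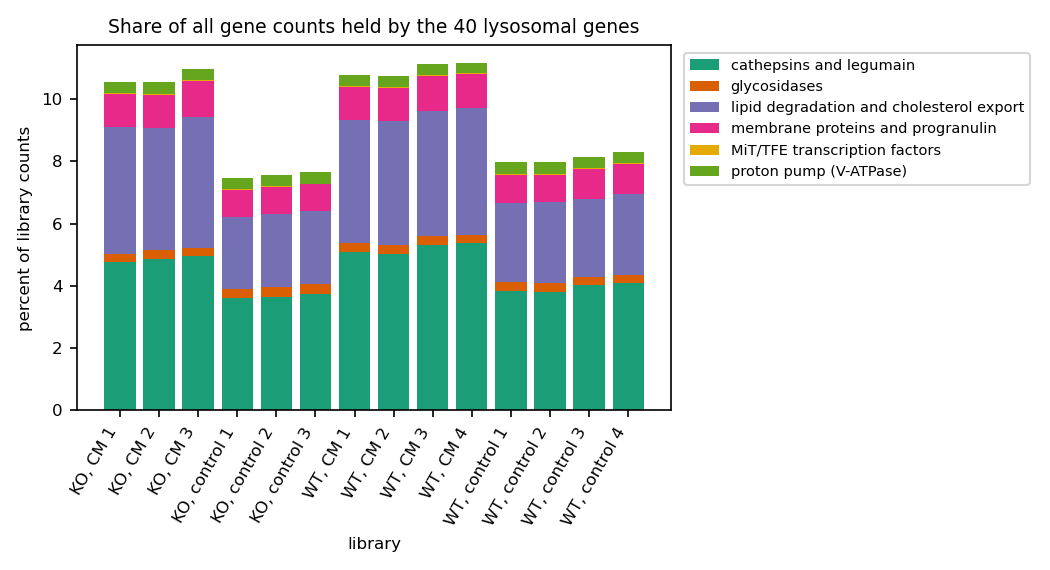
Share of each library's counts (y axis, percent) held by the 40 lysosomal genes, stacked by role, for each of the 14 libraries (x axis). The CM libraries reach 10.53% to 11.16% and the control medium libraries 7.48% to 8.28%, with the cathepsins and the lipid genes making up most of each bar.

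Levels were compared between genes per kilobase of distinct exon. In WT cells in control medium, Psap led with 6707 ± 134 CPM per kb (SD, n = 4). It was followed by the cathepsins Ctss with 5963 ± 594, Ctsd with 4374 ± 122 and Ctsb with 3128 ± 167 CPM per kb. The lowest were Ctsc with 14.8 ± 0.37, Smpd1 (acid sphingomyelinase) with 10.6 ± 1.06 and Ctsk with 8.64 ± 1.1 CPM per kb. Of the 39 neighbouring pairs in this order, 21 had overlapping library ranges, Psap and Ctss among them, so their order is not settled. The place of Ctsc depended on its summed exon length of 11.06 kb, the longest used, ahead of Lamp2 with 6.98 kb. Without division by length, Ctsc averaged 164 CPM in WT cells in control medium. That was above Gla (124 CPM), Gaa (123 CPM) and Smpd1 (25.6 CPM), though below most of the other genes. Ctsk was low on this scale too, with 13.7 CPM. Ctsc and Ctsk were also among the genes that moved most in CM.

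CM was called to change 25 of the 40 genes in each genotype, where 38.1% of all genes were called in KO cells and 37.3% in WT cells. In KO cells, 17 were higher and 8 lower in CM than in control medium, with a median log2 fold change of 0.15. In WT cells, 18 were higher and 7 lower, with a median of 0.12. Calls were made at an adjusted p under 0.05 in edgeR's quasi-likelihood test with Benjamini-Hochberg adjustment over all 13311 genes tested, and all 40 genes were tested. Of all genes, 20.0% were called higher and 18.2% lower in KO cells, and 19.3% higher and 18.0% lower in WT cells, with a median of -0.01 in each. The calls overlapped: 15 genes were called higher in both genotypes (88.2% of the KO calls and 83.3% of the WT calls) and 7 lower in both (87.5% of the KO calls and 100.0% of the WT calls). Atp6v1b2, Atp6v1h and Npc2 were called in KO cells alone, and Asah1, Cd63 and Lamp2 in WT cells alone, and for none of these 6 did the interaction pass. With the replicate number as a block, Asah1 (0.18, adjusted p = 0.000717) and Lamp2 (0.15, adjusted p = 0.00386) passed in KO cells too. KO libraries of the same number did not deviate together (r -0.04 to 0.05), so blocked values of KO cells, here and below, are not paired evidence. Both genes also passed in edgeR with only WT libraries 3 and 4 as a term (adjusted p = 0.00174 for Asah1 and 0.00502 for Lamp2). With scaling by library totals alone, the median of all genes moved to -0.12 in KO cells and -0.09 in WT cells. Then 14 of the 40 genes were called higher and 9 lower in KO cells (14.6% and 27.2% of all genes), and 13 higher and 9 lower in WT cells (14.7% and 26.3%). Within WT libraries 1 and 2, CM was called higher for 17 genes and lower for 6 (17.5% and 15.1% of all genes), and within WT libraries 3 and 4 for 19 and 9 (19.5% and 16.7%).

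**Figure D2:**
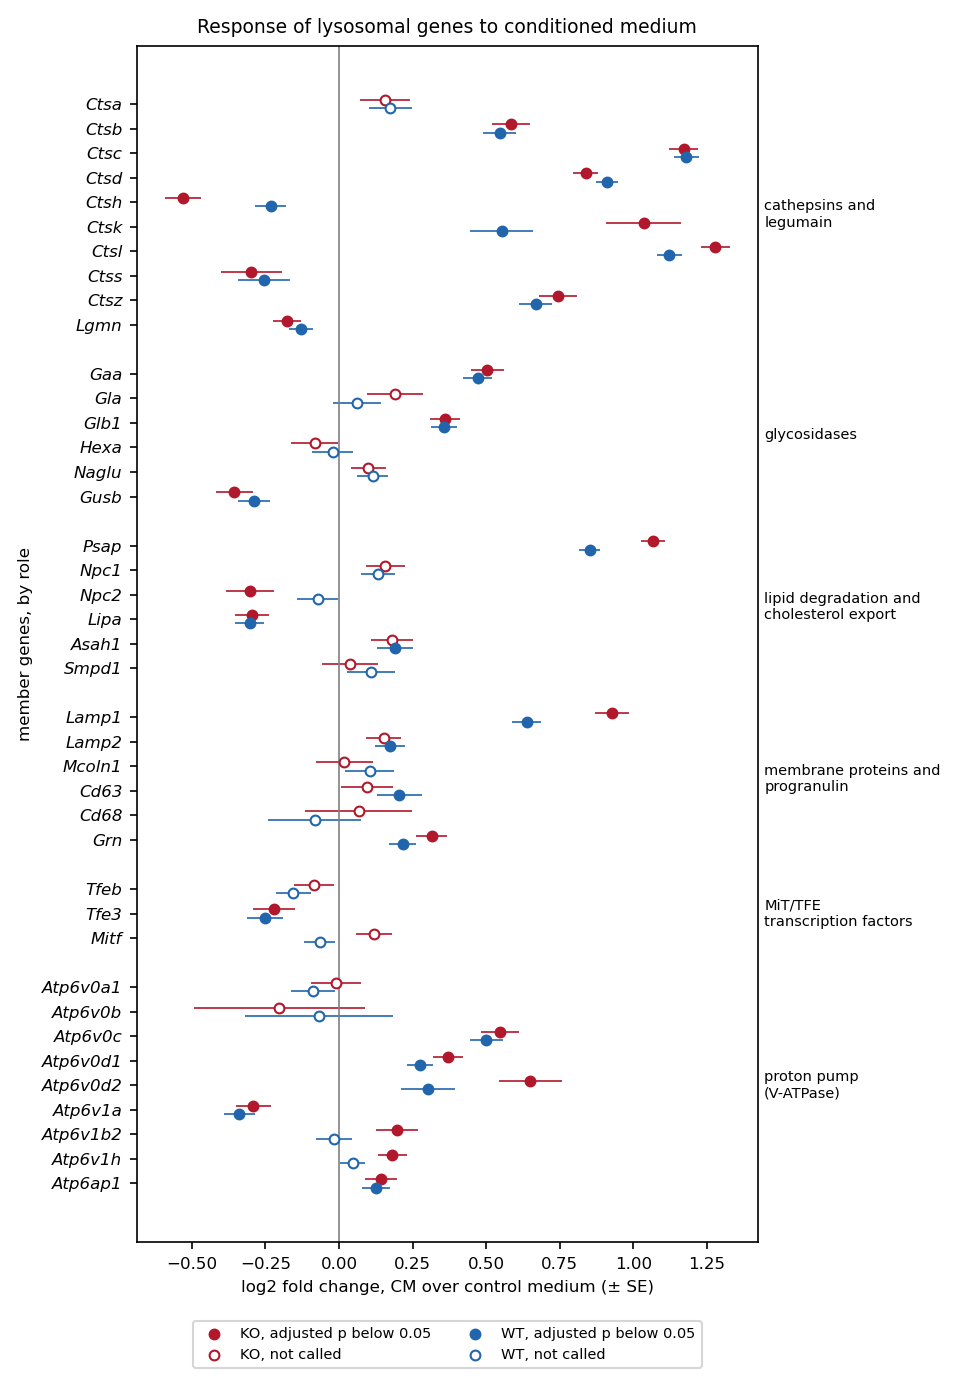
Log2 fold change of CM over control medium (x axis) for the 40 genes grouped by role (y axis), with KO cells above WT cells for each gene, bars of 1 standard error and filled points for an adjusted p below 0.05. Points for the 2 genotypes lie close together for most genes, with Ctsc and Ctsl farthest to the right in both genotypes and Ctsh farthest to the left in KO cells.

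Cathepsins are proteases that digest proteins in the lysosome, and legumain (Lgmn) is an asparaginyl protease that also processes several of them. Of these 10 genes, 6 were higher and 3 lower in CM in each genotype, with a median log2 fold change of 0.66 in KO cells and 0.55 in WT cells. Ctsb, Ctsc, Ctsd, Ctsk, Ctsl and Ctsz rose, Ctsh, Ctss and Lgmn fell, and Ctsa, the protective protein of the neuraminidase and galactosidase complex, was not called (0.16 ± 0.09 in KO cells and 0.17 ± 0.07 in WT cells, log2 ± SE). With the replicate number as a block, Ctsa passed in KO cells (0.16, adjusted p = 0.00134) and in WT cells (0.17, adjusted p = 0.000162). Ctsc encodes cathepsin C, which activates serine proteases of granules. Its level was 407, 421 and 396 CPM in KO cells in CM, against 178, 177 and 188 CPM in KO cells in control medium. In WT cells it was 372, 373, 364 and 378 CPM in CM, against 169, 159, 162 and 166 CPM in control medium. The media were far apart in both genotypes, by 2.25-fold in KO cells (log2 1.17 ± 0.05 SE, adjusted p = 7.5e-11) and by 2.27-fold in WT cells (1.18 ± 0.04, adjusted p = 1.1e-11).

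Ctsl, a cysteine endoprotease, had 3768, 3808 and 3856 CPM in KO cells in CM, against 1517, 1527 and 1667 CPM in KO cells in control medium. In WT cells Ctsl had 4080, 4098, 4050 and 4035 CPM in CM, against 1938, 1866, 1823 and 1844 CPM in control medium. Each CM library was above every control library, with log2 fold changes of 1.28 ± 0.05 in KO cells (adjusted p = 2.5e-11) and 1.12 ± 0.04 in WT cells (adjusted p = 1.7e-11). Ctsd, the main aspartic protease of lysosomes, had 14992, 15510 and 15623 CPM in KO cells in CM, against 8353, 8677 and 8773 CPM in KO cells in control medium. In WT cells Ctsd had 15707, 15927, 15285 and 16133 CPM in CM, against 8510, 8534, 8036 and 8459 CPM in control medium. The groups did not overlap, and the log2 fold changes were 0.84 ± 0.04 in KO cells and 0.91 ± 0.04 in WT cells. Ctsz rose by 0.74 and Ctsb by 0.58 in KO cells, and by 0.67 and 0.55 in WT cells, on the log2 scale.

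Ctsk, the collagen-degrading cathepsin best known from osteoclasts, had the lowest mean per kilobase of the 40 genes in WT cells in control medium, with a range that overlapped that of Smpd1. It had 19.9, 18.9 and 16.1 CPM in KO cells in CM, against 10.4, 7.58 and 8.85 CPM in KO cells in control medium. In WT cells Ctsk had 21.2, 19.7, 20.8 and 18.7 CPM in CM, against 13.7, 12.8, 12.1 and 16.1 CPM in control medium. It rose by 1.03 ± 0.13 in KO cells (adjusted p = 9.3e-06) and by 0.55 ± 0.11 in WT cells (adjusted p = 0.0007). Of 9 osteoclast markers, Calcr had 0 counts in every library and Acp5, the tartrate-resistant acid phosphatase, was the only one called higher, with 20.9 CPM in KO cells in CM, against 2.39 CPM in KO cells in control medium, and 23.5 CPM in WT cells in CM, against 2.99 CPM in WT cells in control medium. Itgb3 and Dcstamp were called lower in both genotypes, and the summed osteoclast level was 89.6 to 96.3 CPM in KO cells in CM, 90.5 to 96.2 CPM in KO cells in control medium, 94.98 to 111.5 CPM in WT cells in CM and 93.9 to 115.3 CPM in WT cells in control medium.

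Ctss, Ctsh and Lgmn were the 3 that fell. Ctss, which degrades the invariant chain of MHC class II, had 5976, 5852 and 5082 CPM in KO cells in CM, against 7165, 6758 and 6869 CPM in KO cells in control medium. In WT cells Ctss had 6911, 6349, 8576 and 7833 CPM in CM, against 8206, 8046, 9913 and 9228 CPM in control medium. The WT ranges overlapped, with libraries 3 and 4 higher than libraries 1 and 2 in both media. Ctss fell by 0.30 in KO cells (adjusted p = 0.032) and by 0.25 in WT cells (adjusted p = 0.036) on the log2 scale. The KO call was lost without KO CM library 2 or 3 or any single KO control library (adjusted p 0.054 to 0.141), and the WT call without WT CM library 1 or 2 or WT control library 3 or 4 (0.0799 to 0.111). Ctsh, an aminopeptidase, had 352, 367 and 373 CPM in KO cells in CM, against 527, 540 and 510 CPM in KO cells in control medium. In WT cells Ctsh had 440, 425, 488 and 476 CPM in CM, against 511, 558, 550 and 527 CPM in control medium. It fell by 0.53 in KO cells (adjusted p = 5.0e-06) and by 0.23 in WT cells (adjusted p = 0.0026) on the log2 scale. Lgmn fell by 0.18 in KO cells and 0.13 in WT cells on the log2 scale, and its WT call was lost without WT CM library 3 or WT control library 2 or 4 (adjusted p 0.0507 to 0.057).

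**Figure D3:**
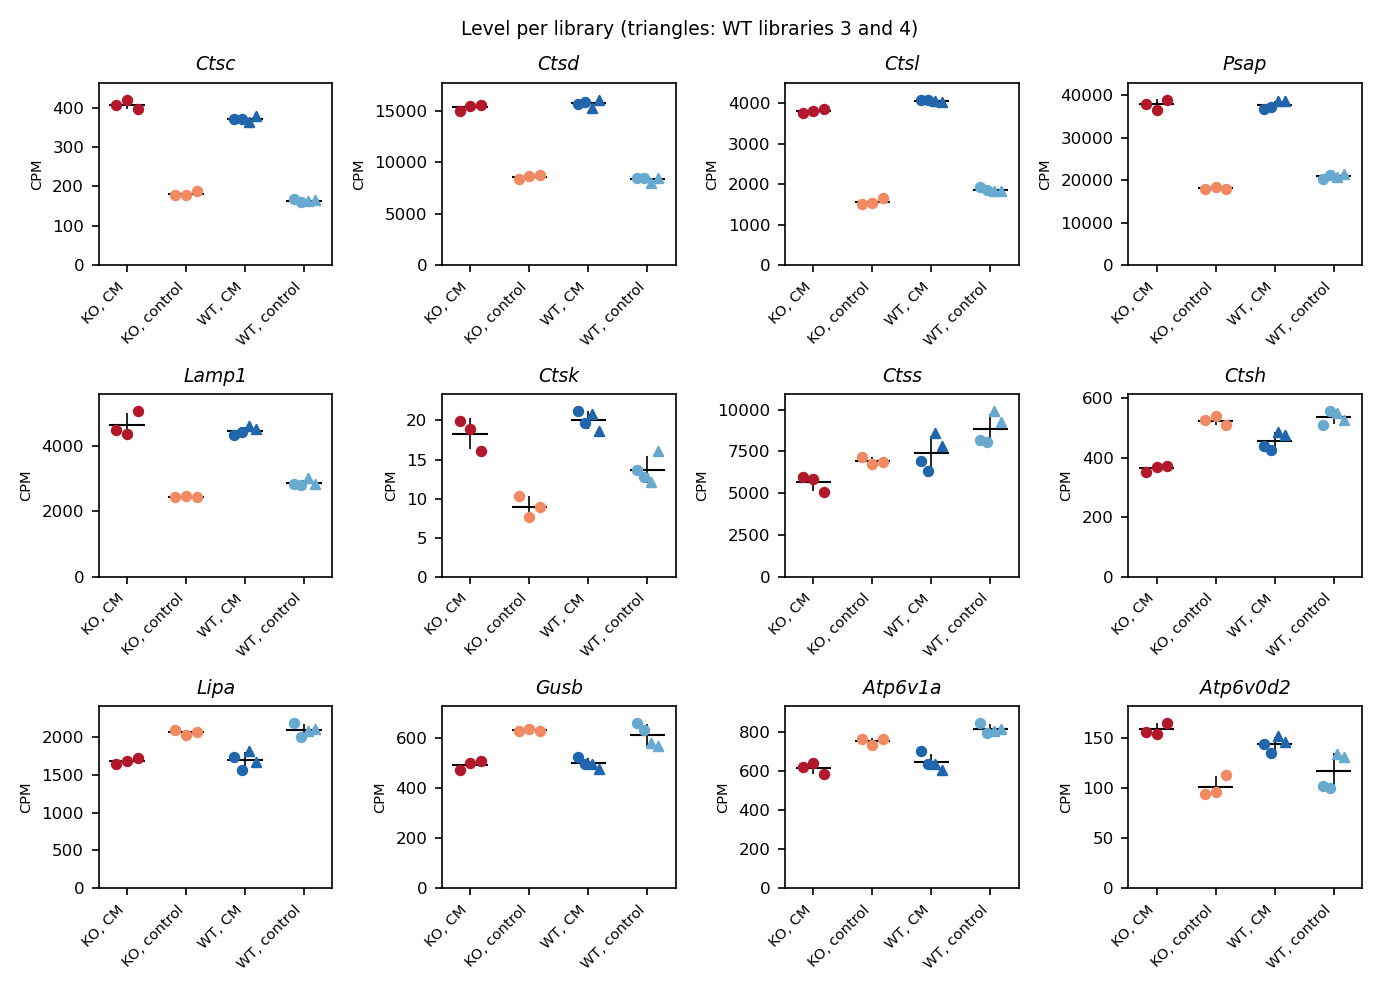
Level in each library (y axis, CPM from 0) of 12 of the genes in the 4 groups (x axis), with a line at the mean and a bar of 1 SD, and triangles for WT libraries 3 and 4. The CM groups sit above the control groups for Ctsc, Ctsd, Ctsl, Psap and Lamp1 in both genotypes and below them for Lipa, Gusb and Atp6v1a.

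The glycosidases remove sugars from glycogen, glycolipids and glycosaminoglycans. Of 6, 2 rose (Gaa and Glb1), 1 fell (Gusb) and 3 were not called (Gla, Hexa and Naglu) in each genotype. Gaa, which degrades glycogen, had 184, 181 and 188 CPM in KO cells in CM, against 130, 138 and 121 CPM in KO cells in control medium. In WT cells Gaa had 169, 164, 176 and 174 CPM in CM, against 120, 128, 121 and 123 CPM in control medium. No CM library fell within the control range, and Gaa rose by 0.50 ± 0.06 in KO cells and 0.47 ± 0.05 in WT cells on the log2 scale. Glb1, a beta-galactosidase, had 217, 232 and 227 CPM in KO cells in CM, against 179, 173 and 175 CPM in KO cells in control medium. In WT cells Glb1 had 233, 230, 250 and 235 CPM in CM, against 189, 181, 187 and 183 CPM in control medium. It rose by 0.36 in both genotypes. Gusb, the beta-glucuronidase, had 474, 501 and 510 CPM in KO cells in CM, against 632, 639 and 630 CPM in KO cells in control medium. In WT cells Gusb had 527, 499, 498 and 479 CPM in CM, against 664, 633, 582 and 569 CPM in control medium. It fell by 0.36 in KO cells and by 0.29 in WT cells on the log2 scale, in the direction opposite to Gaa and Glb1. Gla and Hexa act on glycolipids. The log2 fold change of Gla was 0.19 in KO cells and 0.06 in WT cells, and that of Hexa -0.08 in KO cells and -0.02 in WT cells. With the block Gla passed in KO cells (0.19, adjusted p = 0.00506). Naglu, of heparan sulfate breakdown, had 0.10 in KO cells and 0.11 in WT cells, and passed in WT cells with the replicate number as a block (0.12, adjusted p = 0.031).

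Among the genes of lipid degradation and cholesterol export, Psap stood out. It had 38055, 36551 and 39021 CPM in KO cells in CM, against 17881, 18359 and 17980 CPM in KO cells in control medium. In WT cells Psap had 36849, 37209, 38576 and 38626 CPM in CM, against 20408, 21161, 20866 and 21377 CPM in control medium. It rose 2.10-fold in KO cells (log2 1.07 ± 0.04, adjusted p = 2.9e-11) and 1.80-fold in WT cells (0.85 ± 0.04, adjusted p = 5.3e-11). Lipa, the acid lipase that frees cholesterol from its esters, had 1649, 1681 and 1722 CPM in KO cells in CM, against 2093, 2030 and 2073 CPM in KO cells in control medium. In WT cells Lipa had 1737, 1570, 1818 and 1666 CPM in CM, against 2194, 1998, 2078 and 2109 CPM in control medium. It fell by 0.29 in KO cells and by 0.30 in WT cells on the log2 scale, with no overlap between media. Npc1 and Npc2 pass the freed cholesterol out of the lysosome. Npc2 fell by 0.30 on the log2 scale in KO cells (adjusted p = 0.0082) and had -0.07 in WT cells, where it was not called. Npc1 was not called (0.16 in KO cells and 0.13 in WT cells), although the blocked fit called it higher in KO cells (0.16, adjusted p = 0.00273) and in WT cells (0.13, adjusted p = 0.00297).

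Asah1, the acid ceramidase, had 839, 861 and 908 CPM in KO cells in CM, against 768, 746 and 789 CPM in KO cells in control medium. In WT cells Asah1 had 925, 874, 1026 and 1004 CPM in CM, against 823, 762, 894 and 874 CPM in control medium. Its log2 fold change was 0.18 in KO cells (adjusted p = 0.061) and 0.19 in WT cells (adjusted p = 0.024), with overlapping WT ranges. The WT call was lost without WT CM library 3 or 4 or WT control library 1 or 2 (adjusted p 0.0537 to 0.0792). Smpd1, which makes ceramide from sphingomyelin, was not called, with 0.04 in KO cells and 0.11 in WT cells.

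Of the 6 genes of membrane proteins and progranulin, 2 were called higher in KO cells (Lamp1 and Grn) and 4 in WT cells (Lamp1, Grn, Lamp2 and Cd63), and none was called lower. Lamp1, a main glycoprotein of the lysosomal membrane, had 4480, 4361 and 5052 CPM in KO cells in CM, against 2422, 2461 and 2418 CPM in KO cells in control medium. In WT cells Lamp1 had 4317, 4406, 4592 and 4490 CPM in CM, against 2836, 2785, 3004 and 2812 CPM in control medium. It rose by 0.93 ± 0.06 in KO cells (adjusted p = 4.3e-09) and by 0.64 ± 0.05 in WT cells (adjusted p = 5.0e-08). Lamp2, its relative, had 1205, 1238 and 1289 CPM in KO cells in CM, against 1116, 1091 and 1154 CPM in KO cells in control medium. In WT cells Lamp2 had 1336, 1288, 1360 and 1355 CPM in CM, against 1158, 1085, 1250 and 1238 CPM in control medium. Its log2 fold change was 0.15 in KO cells (adjusted p = 0.0527) and 0.17 in WT cells (adjusted p = 0.0127). Grn, which encodes progranulin, a secreted and lysosomal glycoprotein that binds prosaposin, had 2990, 3039 and 3247 CPM in KO cells in CM, against 2464, 2552 and 2440 CPM in KO cells in control medium. In WT cells Grn had 3101, 2990, 3328 and 3190 CPM in CM, against 2691, 2713, 2795 and 2652 CPM in control medium. It rose by 0.32 in KO cells and 0.22 in WT cells on the log2 scale.

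Cd63, a tetraspanin of late endosomes, had a log2 fold change of 0.10 in KO cells and rose by 0.21 in WT cells (adjusted p = 0.046), a call lost when any of 11 of the 14 libraries was left out (0.0545 to 0.182; WT CM libraries 1, 2 and 3, WT control libraries 3 and 4 and each of the 6 KO libraries). Mcoln1, a calcium channel of the lysosome, was not called, with 0.02 in KO cells and 0.11 in WT cells. Cd68, a macrophage glycoprotein of lysosomes, was not called either, with 0.07 in KO cells and -0.08 in WT cells. For Cd68, WT libraries 3 and 4 averaged 1454 CPM in CM and 1574 CPM in control medium, against 1003 CPM in CM and 1028 CPM in control medium in WT libraries 1 and 2, so its spread between libraries exceeded any difference between media.

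None of the 3 MiT/TFE factor genes was called higher in CM. Tfe3 fell in both genotypes, and Tfeb and Mitf were not called. Tfe3 had 103, 108 and 112 CPM in KO cells in CM, against 125, 130 and 121 CPM in KO cells in control medium. In WT cells Tfe3 had 102, 104, 122 and 118 CPM in CM, against 132, 125, 138 and 135 CPM in control medium. No CM library reached the control range, and Tfe3 fell by 0.22 in KO cells (adjusted p = 0.0223) and by 0.25 in WT cells (adjusted p = 0.00437) on the log2 scale. The KO call was lost without KO CM library 1 or 2 or KO control library 1 or 2 (adjusted p 0.0561 to 0.0963). Tfeb had 60.5, 59.4 and 59.1 CPM in KO cells in CM, against 65.8, 65.7 and 58.2 CPM in KO cells in control medium. In WT cells Tfeb had 49.3, 52.3, 52.5 and 48.1 CPM in CM, against 51.2, 58.0, 60.04 and 55.9 CPM in control medium. The media overlapped in both genotypes, and its log2 fold change was -0.08 in KO cells (adjusted p = 0.366) and -0.16 in WT cells (adjusted p = 0.0528). With the replicate number as a block, Tfeb was called lower in WT cells (-0.16, adjusted p = 0.0102), and it was called lower in both genotypes when libraries were scaled by totals alone.

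Mitf had 99.1, 93.0 and 89.9 CPM in KO cells in CM, against 89.5, 83.1 and 87.2 CPM in KO cells in control medium. In WT cells Mitf had 90.4, 82.5, 90.9 and 86.9 CPM in CM, against 86.2, 89.7, 95.4 and 95.5 CPM in control medium. Its log2 fold change was 0.12 in KO cells and -0.06 in WT cells, neither called, and scaling by totals alone called it lower in WT cells (-0.15, adjusted p = 0.0319). The fourth member of the family, Tfec, which is expressed mainly in myeloid cells, is not among the 40 genes but was in the list of TFEB and mTORC1 regulators. Tfec averaged 99.8 ± 1.76 CPM in KO cells in CM, against 28.1 ± 0.76 CPM in KO cells in control medium (SD, n = 3 each), and 92.3 ± 6.07 CPM in WT cells in CM, against 29.4 ± 3.22 CPM in WT cells in control medium (SD, n = 4 each). It rose by 1.83 ± 0.08 in KO cells and 1.65 ± 0.07 in WT cells on the log2 scale.

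**Figure D4:**
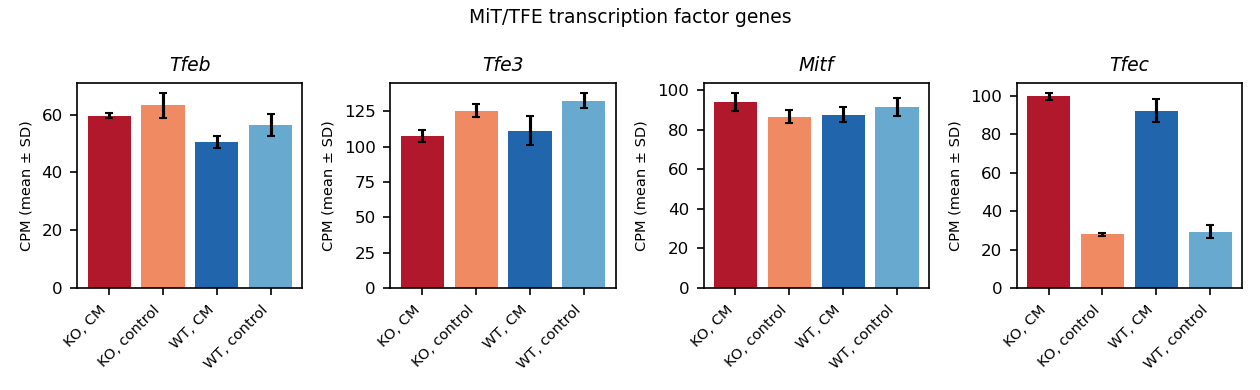
Mean level (y axis, CPM, with a bar of 1 SD) of the 4 MiT/TFE family genes in the 4 groups (x axis, 3 KO or 4 WT libraries each). Tfec is above 90 CPM in both CM groups and below 30 CPM in both control groups, while the means of Tfeb, Tfe3 and Mitf lie close together across media.

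Genes of the proton pump were called in both directions. Of 9, 6 rose and 1 fell in KO cells (median log2 fold change 0.18), and 4 rose and 1 fell in WT cells (median 0.05). Atp6v0c, the proteolipid of the V0 ring, which is known to have processed pseudogenes that could share its reads, had 627, 653 and 701 CPM in KO cells in CM, against 427, 475 and 454 CPM in KO cells in control medium. In WT cells Atp6v0c had 672, 626, 669 and 663 CPM in CM, against 473, 499, 454 and 432 CPM in control medium. It rose by 0.55 in KO cells and 0.50 in WT cells on the log2 scale, the largest rise of the 9 in WT cells. Atp6v0d1, the widely expressed d subunit of V0, had 185, 189 and 197 CPM in KO cells in CM, against 139, 145 and 157 CPM in KO cells in control medium. In WT cells Atp6v0d1 had 179, 181, 182 and 181 CPM in CM, against 149, 147, 150 and 151 CPM in control medium. It rose by 0.37 in KO cells and 0.27 in WT cells on the log2 scale, and its promoter and that of Atp6v1a hold the same palindrome.

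Atp6v1a, the catalytic subunit that splits ATP, moved the other way. It had 624, 641 and 586 CPM in KO cells in CM, against 765, 735 and 764 CPM in KO cells in control medium. In WT cells Atp6v1a had 704, 636, 639 and 608 CPM in CM, against 851, 798, 805 and 817 CPM in control medium. It fell by 0.29 in KO cells (adjusted p = 0.00111) and by 0.34 in WT cells (adjusted p = 7.7e-05) on the log2 scale, with no overlap. Its partner in V1, Atp6v1b2, rose by 0.20 in KO cells (adjusted p = 0.037) and had -0.02 in WT cells. The KO call of Atp6v1b2 was lost when any single KO library was left out (adjusted p 0.0676 to 0.0994). Atp6v1h, a regulatory V1 subunit, rose by 0.18 in KO cells and had 0.05 in WT cells. Atp6ap1, an accessory protein of the pump, rose by 0.14 in KO cells and 0.13 in WT cells. These calls of Atp6ap1 were each lost when any of 11 of the 14 libraries was left out (adjusted p 0.0524 to 0.163 in KO cells, where only WT control libraries 1, 2 and 4 could be spared, and 0.051 to 0.148 in WT cells, where only WT CM library 2 and WT control libraries 1 and 2 could be).

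Atp6v0d2, the d subunit known from osteoclasts and macrophages, rose by 0.65 ± 0.11 in KO cells and 0.30 ± 0.09 in WT cells. It had 156, 154 and 165 CPM in KO cells in CM, against 94.0, 95.4 and 113 CPM in KO cells in control medium. In WT cells Atp6v0d2 had 143, 135, 152 and 146 CPM in CM, against 102, 99.9, 134 and 131 CPM in control medium. The WT control libraries split, with libraries 3 and 4 higher, and the WT call was lost without WT control library 1 or 2 (adjusted p 0.053 to 0.0565). Within WT libraries 3 and 4 it was not called (0.17, adjusted p = 0.077). Atp6v0a1 was not called, with -0.01 in KO cells and -0.09 in WT cells. Atp6v0b, also not called, passed as lower in KO cells with the block (-0.20, adjusted p = 0.00101). It was the gene most unlike between WT libraries: libraries 3 and 4 averaged 220 CPM in CM and 222 CPM in control medium, against 416 CPM in CM and 445 CPM in control medium in libraries 1 and 2.

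Other genes of the pathway were counted from lists chosen by function. For comparison, 20.0% of all genes were called higher and 18.2% lower in KO cells, and 19.3% higher and 18.0% lower in WT cells. Of 43 other lysosomal hydrolases and cofactors, 19 rose and 9 fell in KO cells, and 21 rose and 10 fell in WT cells. Naaa, an amidase of fatty acid ethanolamides, rose by 2.3 in KO cells and 2.04 in WT cells on the log2 scale. Sgsh, a sulfatase of heparan sulfate, fell by 0.91 in KO cells and by 0.68 in WT cells on the log2 scale. Of 18 other V-ATPase subunits and assembly factors tested, 8 rose and 2 fell in each genotype, with Wdr7, of the RAVE-like assembly complex, at 0.67 in KO cells and 0.44 in WT cells and Rogdi, of the same complex, at -0.94 in KO cells and -0.81 in WT cells. Of 24 other membrane proteins and transporters, 7 rose and 6 fell in KO cells, and 8 rose and 5 fell in WT cells. Among them the cation channel gene Tpcn1 fell by 0.86 in KO cells and by 0.76 in WT cells on the log2 scale. Among 10 genes of mannose 6-phosphate and sortilin delivery, 3 rose and 2 fell in KO cells, and 4 rose and 1 fell in WT cells, with the receptor Igf2r at 0.65 in KO cells and 0.46 in WT cells and Gnptab, which makes the mannose 6-phosphate tag, at -0.23 in KO cells and -0.45 in WT cells.

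Of 23 regulators of TFEB and mTORC1, 5 rose (21.7%) and 3 fell (13.0%) in KO cells, against 20.0% and 18.2% of all genes. In WT cells 4 rose and 4 fell (17.4% each), against 19.3% and 18.0% of all genes. Besides Tfec, the Ragulator subunit Lamtor3 rose by 0.65 in KO cells and 0.56 in WT cells, and the calcineurin gene Ppp3ca fell by 0.30 in KO cells and by 0.33 in WT cells, on the log2 scale. Of 26 autophagy genes, 8 rose and 8 fell in KO cells, and 7 rose and 9 fell in WT cells, with a median of -0.03 in KO cells and -0.08 in WT cells. Sqstm1, the cargo receptor p62, fell by 0.53 in KO cells and by 0.49 in WT cells, and Gabarapl1 fell by 0.46 in KO cells and by 0.41 in WT cells, on the log2 scale. Of 6 cathepsin inhibitors tested, 1 rose and 1 fell in KO cells, and 2 rose and 1 fell in WT cells. Cst3, which encodes the secreted inhibitor cystatin C, averaged 951 ± 27.6 CPM in KO cells in CM, against 1640 ± 98.5 CPM in KO cells in control medium (SD, n = 3 each), and 955 ± 23.2 CPM in WT cells in CM, against 1472 ± 81.2 CPM in WT cells in control medium (SD, n = 4 each). Cst3 fell by 0.79 in KO cells and by 0.62 in WT cells on the log2 scale. Of the 10 cathepsin and legumain genes, 6 rose and 3 (Ctsh, Ctss and Lgmn) fell in each genotype.

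Fewer of the 40 genes were called between KO and WT cells than between media. In control medium 5 (12.5%) were lower in KO than in WT cells (Ctsk, Ctsl, Ctss, Psap and Lamp1) and 0 higher. The median log2 fold change was -0.07. Of all genes, 2.5% were called lower and 2.82% higher. The comparison shares the KO control libraries with that of CM in KO cells. Using the values given above, Psap was lower in 3 of 3 KO control libraries than in any of the 4 WT control libraries, by 0.21 ± 0.04 (adjusted p = 0.00628), and by 0.20 against WT libraries 1 and 2 alone (adjusted p = 0.0033). Ctsl was also lower in 3 of 3, by 0.25 ± 0.05 (adjusted p = 0.00648), and by 0.27 against WT libraries 1 and 2 alone (adjusted p = 0.0028). Lamp1 was lower in 3 of 3, by 0.23 ± 0.05 (adjusted p = 0.0224), and by 0.20 against WT libraries 1 and 2 alone (adjusted p = 0.0454). Gla was called lower in KO cells against WT libraries 1 and 2 alone (-0.25, adjusted p = 0.0263) and not against all WT libraries. Counted by exon against WT libraries 1 and 2, 18 of 20 Psap exons, 8 of 8 Ctsl exons and 9 of 10 Lamp1 exons were lower in KO cells. Exons are parts of the gene sums already compared and can share fragments. Exon counts here and below are therefore descriptions and add no separate test.

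Ctsk was lower in 3 of 3 KO control libraries, by 0.62 ± 0.12 (adjusted p = 0.00938), the largest of the 5 differences, and by 0.56 against WT libraries 1 and 2 alone (adjusted p = 0.0186). Ctss was lower in 3 of 3 by 0.35 ± 0.10 (adjusted p = 0.0488), and by 0.23 against WT libraries 1 and 2 alone (adjusted p = 0.0386), so its size depended on WT libraries 3 and 4. Against those 2 libraries alone, 22 of the 40 genes were called (38.9% of all genes), where KO and the way these libraries stand apart cannot be told apart. The calls of Psap and Ctsl held with any single library left out. In other edgeR fits, Psap was not called from its most-counted exon (-0.13, adjusted p = 0.254). Ctsl was not called with only the groups compared (-0.25, adjusted p = 0.0546). Ctsk was lost without KO control library 2 (adjusted p = 0.0636), Lamp1 without any single KO control library or WT control library 3 (0.0713 to 0.0859), and Ctss without any single KO control library, KO CM library 1 or 2, WT CM library 4 or WT control library 3 or 4 (0.0518 to 0.177). Without WT control library 2, 9 genes were called (13.3% of all genes).

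In CM 2 genes (5.0%) were lower in KO than in WT cells (Ctsh and Ctss) and 1 (2.5%) higher (Tfeb). The median log2 fold change was -0.01. Of all genes, 1.49% were called lower and 3.1% higher. Ctsh was lower in 3 of 3 KO CM libraries than in any WT CM library, by 0.33 ± 0.06 (adjusted p = 0.00535), and by 0.24 against WT libraries 1 and 2 alone (adjusted p = 0.0206). All 12 exons of Ctsh, the parts of that same sum, were lower in that comparison. Ctss was lower in 3 of 3, by 0.40 ± 0.10 (adjusted p = 0.0321), and by 0.23 against WT libraries 1 and 2 alone (adjusted p = 0.0378). Tfeb was higher in 3 of 3 KO CM libraries, by 0.24 ± 0.06 (adjusted p = 0.0469), and by the same 0.24 against WT libraries 1 and 2 alone, where it was not called (adjusted p = 0.0882). Its transcript encodes the factor whose activity is known to depend on where the protein sits in the cell, which these counts do not measure. The Ctss call was lost without any single KO CM library or WT CM library 3 or 4 (adjusted p 0.0655 to 0.162). The Tfeb call was lost when any of 10 libraries was left out (0.0502 to 0.139), which were those of both CM groups, KO control libraries 1 and 2 and WT control library 4. Npc2 was called lower in KO cells against WT libraries 1 and 2 alone (-0.27, adjusted p = 0.0178) and not against all WT libraries. Against all WT libraries, Ctss was the gene called in both media.

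Of the 5 genes lower in KO cells in control medium, Ctss was also called in CM and the other 4 were not. In CM the log2 difference between KO and WT cells was 0.00 for Psap (95% interval -0.08 to 0.09), 0.06 for Lamp1 (-0.06 to 0.18), -0.09 for Ctsl (-0.19 to 0.01) and -0.13 for Ctsk (-0.39 to 0.12). Intervals are the estimate plus or minus a t quantile on 10 residual degrees of freedom times the standard error. Counted by exon against WT libraries 1 and 2 in CM, 9 of 20 Psap exons and 0 of 10 Lamp1 exons were lower in KO cells. For Ctsl 7 of 8 exons were lower and for Ctsk 8 of 8. Every KO CM library was also below every WT CM library for Ctsl (3768 to 3856 CPM against 4035 to 4098 CPM).

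**Figure D5:**
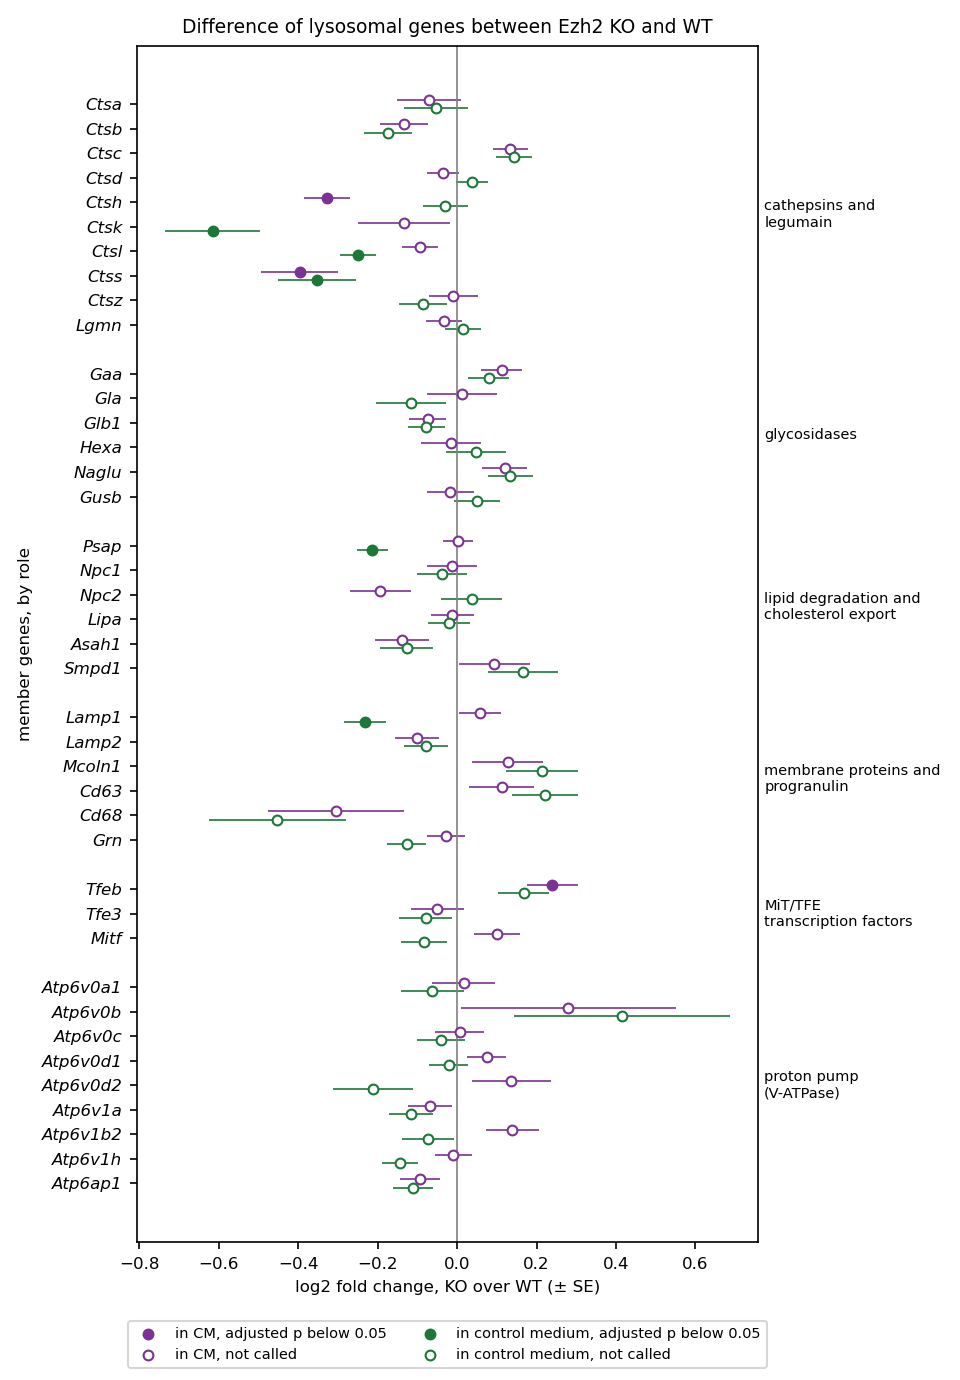
Log2 fold change of KO over WT cells (x axis) for the 40 genes grouped by role (y axis), with CM above control medium for each gene, bars of 1 standard error and filled points for an adjusted p below 0.05. In control medium Ctsk, Ctsl, Ctss, Psap and Lamp1 lie left of 0, and in CM Psap and Lamp1 lie at or near 0 while Ctsh lies at -0.33.

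Whether the response to CM differed between the genotypes was tested as an interaction (the KO response minus the WT response). None of the 40 genes and none of the 13311 genes passed in edgeR (0.0%). At an unadjusted p below 0.05 there were 9 of the 40 genes and 1050 of all genes. DESeq2's Wald test called 84 of all genes (0.631%), Psap (0.22, adjusted p = 0.0157) and Lamp1 (0.29, adjusted p = 0.0403) among them. In edgeR the interaction was 0.22 ± 0.05 for Psap (adjusted p = 0.305), 0.29 ± 0.07 for Lamp1 (adjusted p = 0.33) and -0.30 ± 0.08 for Ctsh (adjusted p = 0.33). With the replicate number within genotype as a block, the same sizes passed (adjusted p = 0.0136 for Psap, 0.0205 for Lamp1 and 0.0369 for Ctsh), and 205 of all genes did (1.54%). With WT libraries 1 and 2 alone none of the 40 genes passed (0.0824% of all genes), and with WT libraries 3 and 4 alone (0.4% of all genes) Ctsh and Atp6v0d2 did (-0.37, adjusted p = 0.0239, and 0.48, adjusted p = 0.0437). Ctsk, with an interaction of 0.48 ± 0.17 (adjusted p = 0.457), did not pass in any of these fits. For Psap, its most-counted exon alone gave -0.011 (adjusted p = 0.993).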

How the data were processed

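The authors deposited raw counts per exon of transcript models. The submitters' processing notes name HISAT2 and mm10; the HISAT2 version, the counting tool, the annotation and any strand setting are not given in the sources used here. The table has 427386 exon entries. Exact repeats within a gene (196941 entries, with 48.6% of all counts) were dropped, and the 230445 distinct exons were summed per gene; the 40 genes had 477 of 1019 entries left. A fragment over several exons can count in each. The file gives exon lengths and no coordinates, so counts per kilobase use the summed length of distinct exons.

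The quasi-likelihood F test of edgeR 4.0.16 (R 4.3.3) was fitted to the counts of all 14 libraries with 1 mean per group, TMM scaling and the filter filterByExpr (minimum count 10, minimum total 15), with Benjamini-Hochberg adjustment over all genes within a comparison. Standard errors are the log2 fold change over the square root of F, and CPM are counts scaled to TMM-adjusted library totals. On simulated counts, the step recovered 81% of genes changed 1.5-fold and 96% of those changed 2-fold for CM in WT (13218 genes), and 44% and 81% for the interaction (13212 genes). Alternatives included DESeq2 1.42.0.

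Values in every library are given for the 3 genes of each role with the smallest p for CM in WT and for genes called between genotypes; for Atp6v0d2 they were chosen after its values were seen. Context genes named are mostly among the 3 with the smallest p of a list, of which 1 is not reported here; Sgsh and Itgb3 and Dcstamp were chosen after their values were seen. The 40 genes and the lists were chosen with earlier results of these data known. WT libraries of the 2 media with the same number deviated together (r 0.33 to 0.47), but so did libraries of different numbers (highest r 0.31 to 0.46, above the same number for library 1 and equal to it for library 4). KO libraries did not deviate together (-0.04 to 0.05).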

Additional observations from a re-analysis of the deposited data

Results flagged for a closer look

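Ctsd in WT control library 3 was 8036 CPM, below the other 3 WT control libraries, which lay close together between 8459 and 8534 CPM. The gap to the nearest of them, over the range of the 4, was above Dixon's 95% critical value. This was the only such value among 82 groups of 4 libraries examined, and chance alone marks about 1 group in 20. WT control library 3 is one of the libraries that stand apart in exon shares, and the part of that in this value was not tested.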

How the results depend on the processing

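For 64 gene results, which were the calls between groups and some of the interactions, 1658 alternative values were computed. Of these, 1657 kept the direction, 144 lost the call and 10 gained it. The exception in direction among them was the Psap interaction from its most-counted exon (-0.011). Uncalled differences between groups were not among the 64. Some of those changed direction, such as Ctsa in CM from its most-counted exon. The CM counts stayed within 1.5 times in every alternative run, with 21 to 25 of the 40 genes in WT cells and 21 to 27 in KO cells when each library was left out in turn (4498 to 4949 and 4297 to 5218 of all genes). For KO in control medium, the 5 genes became 3 at an adjusted p of 0.01 or with only the groups compared, 1 from the most-counted exon, 9 with WT libraries 3 and 4 as a term and 22 against WT libraries 3 and 4 alone, and 2 to 9 with a library left out. The 708 of all genes became 174, 283, 385, 1039 with the term, 5246 against WT libraries 3 and 4 and 1501 in DESeq2, and 224 to 1769 with a library left out. For KO in CM, the 3 genes became 1 at 0.01, 1 with only the groups compared, 0 from the most-counted exon, 5 with WT libraries 3 and 4 as a term and 15 against those alone, and 1 to 3 with a library left out; the 611 of all genes became 173, 923 with the term, 4791, 1219 in DESeq2, and 217 to 721. For the interaction, the 0 became 3 with the term or the replicate block, 2 with WT libraries 3 and 4 alone and 2 in DESeq2; the 0 of all genes became 164, 205, 11 with WT libraries 1 and 2, 54 with WT libraries 3 and 4 and 84, and 0 to 2 with a library left out. The cause was not tested.

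Between genotypes the replicate numbers do not pair the libraries. With the replicate block, KO in control medium again had 5 calls (Ctsb gained, Ctss lost at 0.0561) and KO in CM 3 (Npc2 gained, Tfeb lost at 0.0777), against 826 and 581 of all 13311 genes. CM in KO cells then had 22 genes higher and 9 lower (3434 and 3240 of all genes), and CM in WT cells 21 and 8 (3377 and 3197). Scaling by totals alone called 1941 of all genes higher and 3624 lower for CM in KO cells, and 1957 higher and 3501 lower in WT cells. With 3 or 4 libraries a group, the smallest called difference of the 40 genes was 0.13 for CM (Atp6ap1 in WT cells) and 0.21 in size between KO and WT cells (Psap in control medium) on the log2 scale. No alternative was left out except the interaction with only the groups compared, which already uses all groups.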

Other observations

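Counts of the most-counted exon of Ctsa did not follow the gene. That exon was lower in CM by 0.50 in KO cells (adjusted p = 0.000143) and by 0.45 in WT cells (adjusted p = 9.5e-05) on the log2 scale, while the whole gene had 0.16 in KO cells and 0.17 in WT cells. The file does not give the strand setting or coordinates, and reads of an overlapping gene were not tested.

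Of 95 other lysosomal and sorting genes tested, 8 were called between KO and WT cells in CM (8.42%, against 4.59% of all genes). In control medium 10 were called (10.5%, against 5.32% of all genes). The calls were split evenly, with 4 higher and 4 lower in KO cells in CM and 5 higher and 5 lower in control medium. Sort1, which encodes the sorting receptor sortilin, was higher in KO than in WT cells by 0.44 in CM and 0.48 in control medium. Laptm4b was higher by 0.44 in CM and 0.46 in control medium, and Hgsnat, of heparan sulfate breakdown, by 0.35 in CM and 0.25 in control medium. Slc29a3, a nucleoside transporter of lysosomes, was lower by 0.35 in CM and by 0.39 in control medium.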
